A study of Mus musculus with 9 samples.

Results

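The 36 genes described here carry glucose into the cell, convert it to pyruvate and lactate, move lactate across the plasma membrane, and pass pyruvate into the mitochondrion and the pyruvate dehydrogenase complex. They were taken by gene symbol from a written list, out of 21951 genes in the deposited count table. RNA was sequenced from BV2, an immortalized mouse microglial cell line labelled wild type, in 9 libraries of 3 groups with 3 replicates each. The triol group was pretreated for 30 min with the steroid 5α-androst-3β,5α,6β-triol at 10 µM and then given X-rays at 10 Gy. The irradiated group received vehicle, 20% hydroxypropyl-β-cyclodextrin, for the same 30 min and then 10 Gy. The control group received vehicle and no radiation. The vehicle of the triol group was not stated in the sources used here. Triol and a possible difference in vehicle therefore cannot be told apart. Titles name the same triol for all 3 libraries of that group, while the treatment field of replicates 2 and 3 reads 7β and 8β. The titles were followed. The time between irradiation and RNA extraction, and whether replicates came from separate cultures, were not stated in the sources used here. The p-values therefore measure spread among 9 libraries, part or all of which may be technical. BV2 is 1 immortalized line, and no primary microglia were measured.

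Glycolysis splits glucose to pyruvate with a small yield of ATP and NADH. Hexokinase, phosphofructokinase and pyruvate kinase are its controlled steps, and most of its other enzymes work near equilibrium. Lactate dehydrogenase turns pyruvate into lactate to recover NAD+, and monocarboxylate carriers move lactate with a proton across the membrane, while pyruvate bound for oxidation enters the mitochondrion through a carrier and is decarboxylated by pyruvate dehydrogenase. In microglia and macrophages, glycolysis is known to increase when the cells are activated by bacterial products.

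Libraries held 13879062 to 18944051 counted reads. Of 13 microglia and macrophage markers, all were detected and 0 rose and 10 fell in irradiated against control cells. Among all tested genes, 22.1% rose and 22.2% fell in that comparison. The summed level of the 13 markers was 2199 to 2251 reads per 1000000 in triol libraries, 2173 to 2254 in irradiated libraries and 2820 to 2964 in control libraries. The 7 neuron markers were low in every library but summed to 2.57 to 3.27 reads per 1000000 in triol, 1.22 to 2.21 in irradiated and 0.129 to 0.791 in control libraries. The 6 astrocyte markers summed to 1.51 to 2.17 in triol, 1.97 to 2.21 in irradiated and 0.321 to 0.850 in control libraries. The 5 muscle markers summed to 1.68 to 2.74 in triol, 1.80 to 2.44 in irradiated and 0.226 to 0.921 in control libraries. These 3 sums lay higher in every triol and irradiated library than in every control library, and the tested markers of these lists, 1 of neurons (Tubb3), 1 of astrocytes (Slc1a2) and 2 of muscle, all rose in irradiated against control cells. Tubb3 had 44, 23 and 33 reads in triol, 29, 16 and 30 in irradiated and 2, 2 and 0 in control libraries. The neuron markers without Tubb3 had 10, 22 and 29 reads in triol, 3, 1 and 0 in irradiated and 1, 12 and 2 in control libraries. The higher neuron sum in irradiated than in control libraries thus came from Tubb3 and not from the rest of that list. The 5 oligodendrocyte markers summed to 5.75 to 7.81 in triol, 5.20 to 7.11 in irradiated and 5.60 to 6.11 in control libraries, which overlapped. The 14 hepatocyte markers summed to 10.9 to 11.0 reads per 1000000 in triol libraries, 1.32 to 3.11 in irradiated libraries and 1.13 to 2.82 in control libraries. Whether these markers bear on the values of the glycolytic genes was not tested.

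Of the 36 genes, 32 had enough reads to be tested. Pdk2 and Pdk4, both pyruvate dehydrogenase kinases, had 0 reads in all 9 libraries. A count of 0 allows a level of up to 0.158 to 0.217 counts per 1000000 (CPM, from 3 counts in the library's total), for counting error only. Eno2, the neuronal enolase, had 0 to 3 reads in every library. Ldhb, the lactate dehydrogenase subunit of oxidative tissues, had 2, 2 and 3 reads in triol libraries, and 0 in every irradiated and control library. The hepatocyte marker reads, 190 to 206 in triol, 20 to 45 in irradiated and 16 to 50 in control libraries, were higher in the same 3 libraries. The neuron marker reads without Tubb3 were 10 to 29 in triol, 0 to 3 in irradiated and 1 to 12 in control libraries. Those of triol and control libraries overlapped. The relation of either marker list to the Ldhb reads was not tested, and no fold is given for so few reads.

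The rest of the pathway was expressed over a wide range. Per kilobase of exon, on the scale of CPM after trimmed-mean (TMM) scaling, Gapdh stood highest with 591 ± 13.6 in triol, 584 ± 12.5 in irradiated and 597 ± 20.00 in control libraries (mean ± SD, n = 3 each). Next in the mean over all 9 libraries came Pkm at 484 CPM per kb, Aldoa at 466, Ldha at 425, Pgk1 at 419 and Eno1 at 331. Ldha and Pgk1, neighbours in that order, overlapped in their values over libraries. The controlled entry steps lay lower, with Hk3 at 99.7, Slc2a1 at 41.2 and Pfkp at 38.9 CPM per kb, and Bpgm at 1.33 and Pfkfb2 at 1.05 CPM per kb were the lowest of the tested genes. All 36 genes together took 1.448 to 1.504% of counts in triol libraries, 1.427 to 1.480% in irradiated libraries and 1.440 to 1.476% in control libraries. Exact two-sided permutation tests of that summed share gave p = 0.5 for triol against irradiated and p = 1 for irradiated against control cells, where 3 libraries against 3 cannot go below 0.1. The genes Gapdh, Pkm, Eno1, Aldoa and Ldha held 63.0 to 65.3% of those counts.

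**Figure D1:**
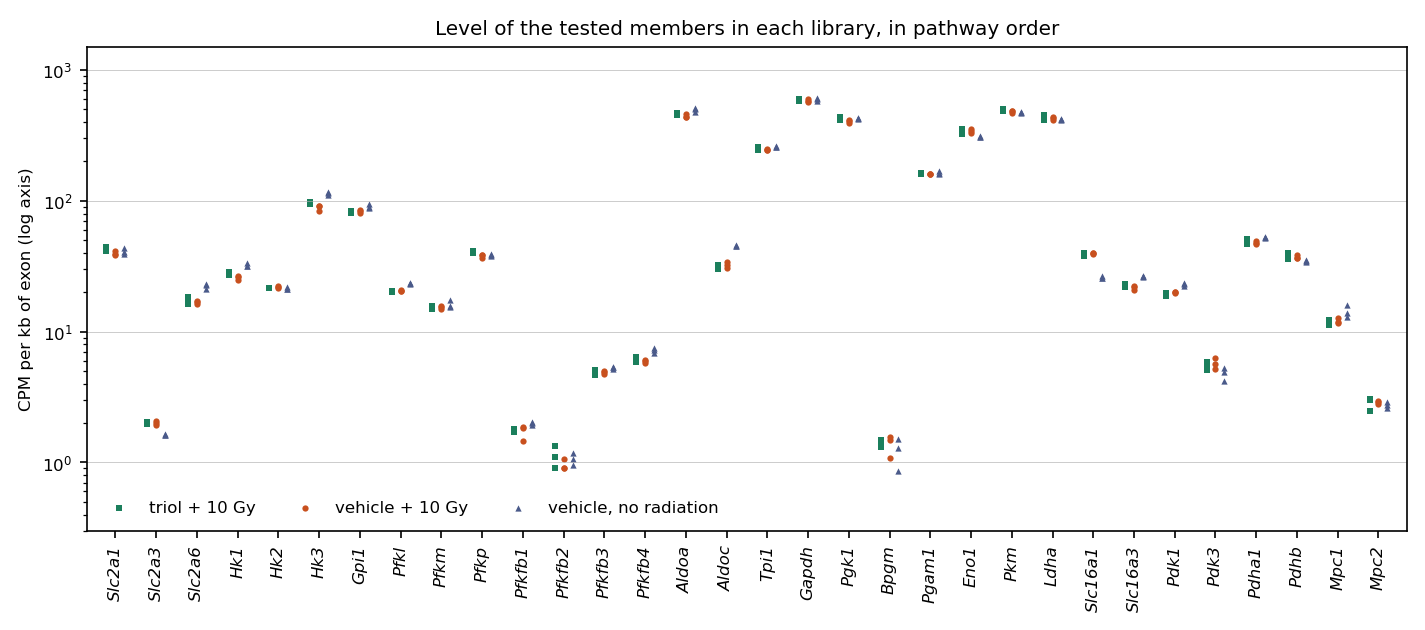
Level of each tested gene in every library, in CPM per kilobase of exon on a log axis, with genes in the order of the pathway and the triol, irradiated and control groups side by side (3 points each). Levels run from about 1 (Bpgm, Pfkfb2) to 597 CPM per kb (mean of Gapdh in control cells), and most groups sit close together on this scale.

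Some of these levels depend on reads that match more than 1 gene. The share of 75-base stretches also present in transcripts of another gene was 52.8% for Pgk1, 34.9% for Pgam1, 23.0% for Eno1, 22.6% for Gapdh, 21.3% for Mpc1, 17.8% for Pkm, 16.2% for Pfkfb2, 12.6% for Ldhb, 10.8% for Gpi1 and 10.6% for Pdha1. The counting may have split or dropped such reads, so these genes are uncertain in level. The near copy of Eno1 in the table, Eno1b, held 27 to 61 reads per library, against at least 23043 for Eno1 itself. The symbol Aldoa stands on a second row of the table with 6 to 19 reads per library, and the main locus was used here.

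Radiation changed the level of about as many of these genes as did not pass, and the changes were small, mostly downward. The hexokinases Hk1 and Hk3 and the aldolase Aldoc fell, Slc16a1 rose, and among the glucose carriers Slc2a3 rose and Slc2a6 fell. Of the 32 tested genes, 17 passed an adjusted p of 0.05 in irradiated against control cells (53.1%), and 44.3% of all 11295 tested genes did so (quasi-likelihood F test of edgeR, Benjamini-Hochberg adjustment over all tested genes). Higher were 4 genes, or 12.5%, with 22.1% among all genes, and lower were 13, or 40.6%, with 22.2% among all genes. The genes that rose were the lactate carrier Slc16a1, the glucose carrier Slc2a3, the enolase Eno1 and the pyruvate dehydrogenase subunit Pdhb. Those that fell were Aldoc, Slc2a6, Hk3, Hk1, Slc16a3, Pfkfb4, Mpc1, Pdk1, Pfkl, Aldoa, Pdha1, Gpi1 and Pgk1. The median log2 fold change over the 32 genes was -0.08, beside 0.01 over all genes. In 4 genes every irradiated library lay above every control library and in 17 every one lay below, or 21 of 32 in all, while 50.7% of all genes separated in this way. In bulk RNA, a change in the share of cells that use a gene and a change in the RNA per cell cannot be told apart.

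**Figure D2:**
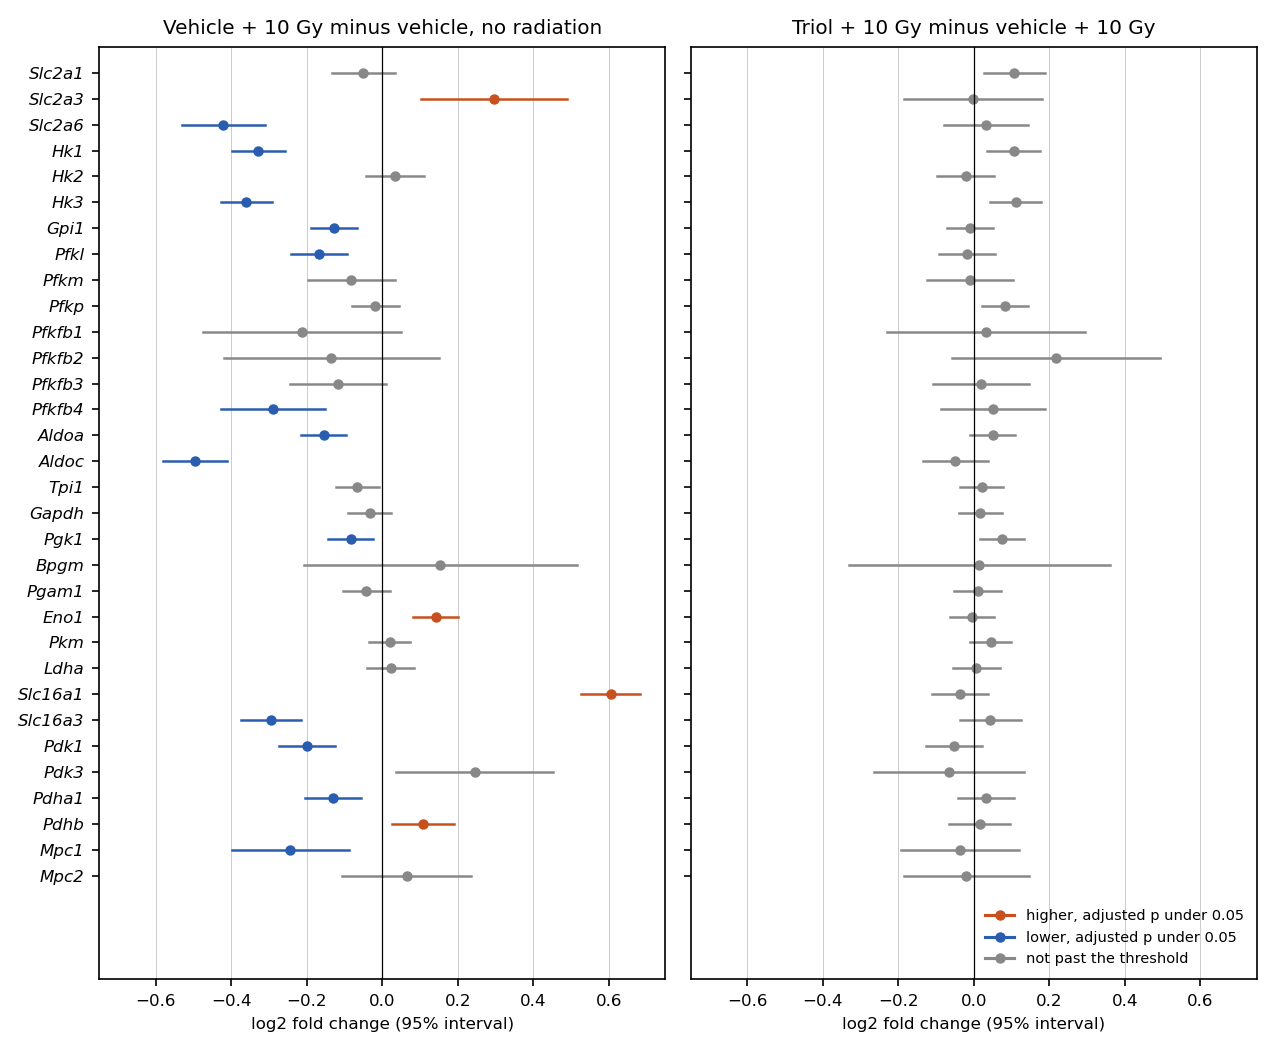
Log2 fold change of each tested gene with its 95% interval, in pathway order, for irradiated against control cells (left) and triol against irradiated cells (right). On the left 4 genes pass the threshold upward and 13 downward, with Slc16a1 at 0.61 and Aldoc at -0.50 farthest out, and on the right no gene passes it.

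Only 4 of the 17 genes had a change shown to exceed 1.2-fold when edgeR tested against that size, namely Slc16a1 upward (adjusted p = 2.27e-10) and Aldoc (adjusted p = 4.97e-06), Slc2a6 (adjusted p = 0.00872) and Hk3 (adjusted p = 0.00873) downward. The sequence around the transcription start of these 4 genes and of Slc16a3, the other lactate carrier, is shown to let their letters be compared. It comes from RefSeq on GRCm38.p6 and runs from 250 bases before to 50 after the start, 5′ to 3′ on the gene's strand. Capitals mark ACGTG or GCGTG on either strand (read as CACGT or CACGC on the other one), the core bound by the hypoxia-inducible factor, a known activator of glycolytic genes. The windows are Slc16a1 (chr3:104638414-104638713, + strand), Slc16a3 (chr11:120948817-120949116, + strand), Aldoc (chr11:78322823-78323122, + strand, the upstream one of its 2 RefSeq starts), Slc2a6 (chr2:27027949-27028248, - strand) and Hk3 (chr13:55021336-55021635, - strand).
Slc16a1: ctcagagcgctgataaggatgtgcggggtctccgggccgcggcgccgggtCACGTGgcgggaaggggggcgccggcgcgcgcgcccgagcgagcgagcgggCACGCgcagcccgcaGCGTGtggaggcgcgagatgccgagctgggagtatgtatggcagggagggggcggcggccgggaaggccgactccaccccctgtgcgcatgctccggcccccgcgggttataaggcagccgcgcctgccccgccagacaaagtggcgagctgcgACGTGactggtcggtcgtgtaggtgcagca
Slc16a3: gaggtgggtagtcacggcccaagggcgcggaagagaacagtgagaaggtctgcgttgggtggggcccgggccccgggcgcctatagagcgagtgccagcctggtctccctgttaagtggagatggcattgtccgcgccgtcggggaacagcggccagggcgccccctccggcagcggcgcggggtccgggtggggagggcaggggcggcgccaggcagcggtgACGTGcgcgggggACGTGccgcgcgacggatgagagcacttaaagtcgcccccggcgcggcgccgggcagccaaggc
Aldoc: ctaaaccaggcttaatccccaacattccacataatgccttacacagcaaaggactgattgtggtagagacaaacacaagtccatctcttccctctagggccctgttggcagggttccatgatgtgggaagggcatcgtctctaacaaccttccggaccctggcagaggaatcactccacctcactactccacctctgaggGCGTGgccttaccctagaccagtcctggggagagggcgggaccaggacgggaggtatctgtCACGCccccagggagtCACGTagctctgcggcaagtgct
Slc2a6: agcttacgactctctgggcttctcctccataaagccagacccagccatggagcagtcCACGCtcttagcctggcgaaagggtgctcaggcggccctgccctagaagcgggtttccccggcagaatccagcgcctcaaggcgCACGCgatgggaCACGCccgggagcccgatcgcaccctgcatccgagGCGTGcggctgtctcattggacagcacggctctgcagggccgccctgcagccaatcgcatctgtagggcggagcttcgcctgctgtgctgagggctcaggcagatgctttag
Hk3: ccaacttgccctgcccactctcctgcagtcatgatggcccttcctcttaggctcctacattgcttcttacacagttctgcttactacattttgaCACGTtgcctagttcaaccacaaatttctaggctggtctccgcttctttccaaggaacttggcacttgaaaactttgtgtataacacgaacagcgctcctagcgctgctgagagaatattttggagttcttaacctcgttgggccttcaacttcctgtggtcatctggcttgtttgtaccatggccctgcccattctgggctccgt

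Slc16a1 held 5 matches, of which those at -200 and -199 are the strands of 1 CACGTG, the E-box that MYC and MAX bind and that contains ACGTG. Slc16a3 held 2 matches, at -27 and -14 from the start, Aldoc held 3, Slc2a6 held 4 and Hk3 held 1, at -156. Of the 36 genes, 35 had a RefSeq window and 31 of these had the core in at least 1 window. By window, 41 of 55 held it, or 74.5%, beside 43.8% of all 32851 mouse windows of the same 300 bases, while their median GC content was 61.0% and 52.7%. The E-box alone stood in 6 of the 55 windows (10.9%, beside 7.15% of all). The core thus stood in windows of genes that rose, fell and did not pass the test, and a match is a description of letters, not of a bound site.

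At glucose entry the carriers moved apart. Slc2a1 (GLUT1, chr4:119108711-119137983, + strand), the common facilitative carrier and the most abundant of the listed ones, had 146, 156 and 148 CPM in triol, 138, 145 and 134 in irradiated and 152, 143 and 137 in control libraries. Its groups overlapped between irradiated and control cells, with a log2 fold change of -0.05 ± 0.04 (SE) and an adjusted p of 0.337. Slc2a3 (GLUT3, chr6:122727809-122801640, - strand), a high-affinity carrier best known from neurons, had 14.6, 14.3 and 14.7 CPM in triol, 14, 15.1 and 14.6 in irradiated and 11.8, 12 and 11.8 in control libraries. Both irradiated groups lay above every control library, and the gene rose by 0.30 ± 0.10 on the log2 scale (adjusted p = 0.0103), a call that was lost without irradiated replicate 2 (adjusted p = 0.0507). Slc2a6 (GLUT6, chr2:27021363-27027998, - strand), a carrier of internal membranes in macrophages, had 53.5, 52.2 and 58.6 CPM in triol, 55, 54 and 51.9 in irradiated and 72.9, 74.2 and 68.1 in control libraries. The control libraries were highest with no overlap, and Slc2a6 changed by -0.42 ± 0.05 in irradiated against control cells (adjusted p = 2.15e-08).

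Hexokinases trap glucose as its phosphate. Hk3 (chr13:55005985-55021385, - strand), the isozyme typical of white blood cells, held about 65.1% of hexokinase reads per kb in irradiated cells and had 347, 358 and 355 CPM in triol, 337, 336 and 309 in irradiated and 430.4, 423 and 406 in control libraries. It was lower in all 3 irradiated than in all 3 control libraries, by -0.36 ± 0.03 (log2 fold change ± SE, adjusted p = 6.13e-12). Hk1 (chr10:62268855-62379908, - strand), the housekeeping isozyme on the outer mitochondrial membrane, had 234, 231 and 244 CPM in triol, 212, 222 and 226 in irradiated and 286, 273 and 269.7 in control libraries. Its order over groups was that of Hk3, and it changed by -0.33 ± 0.03 in irradiated against control cells (adjusted p = 1.96e-10). Hk2, the inducible isozyme, gave 129, 129 and 129 CPM in triol, 133, 130.2 and 129.8 in irradiated and 131, 126 and 127 in control libraries. All 9 values lay within a narrow band, and the log2 fold change of 0.03 ± 0.04 for irradiated against control cells had a 95% interval of -0.04 to 0.11 and an adjusted p of 0.514. Summed per kb of exon, the hexokinases came to 145 ± 1.69 in triol, 137 ± 3.98 in irradiated and 168 ± 4.51 CPM per kb in control cells (SD, n = 3 each), a ratio of 0.814 for irradiated to control.

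In the middle of the pathway the changes were smaller. Gpi1, the isomerase that makes fructose phosphate, had 539, 524 and 533 CPM in triol, 519.6, 541 and 547 in irradiated and 573, 606 and 578 in control libraries, and fell by 0.13 on the log2 scale in irradiated against control cells (adjusted p = 0.000536). Of the phosphofructokinases, which catalyse the committed step, the platelet type Pfkp held 51.3% of the reads per kb in irradiated cells and gave a log2 fold change of -0.02 ± 0.03 (adjusted p = 0.663). Pfkl, the liver type, had 138, 135 and 137 CPM in triol, 139.9, 138 and 138 in irradiated and 154, 156 and 157 in control libraries. Every irradiated library was below every control library for Pfkl, with a log2 fold change of -0.17 ± 0.04 (adjusted p = 0.000218). Pfkm, the muscle type, averaged 51.4 ± 1.49 CPM in irradiated and 54.3 ± 3.83 CPM in control cells (SD, n = 3 each), with an adjusted p of 0.258.

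The Pfkfb enzymes make and remove fructose bisphosphate of the regulatory kind, the activator of phosphofructokinase. Pfkfb4 (chr9:108991778-109032228, + strand) had 31, 30.1 and 28.6 CPM in triol, 29.6, 29 and 28 in irradiated and 35.2, 36.8 and 33.6 in control libraries. The control libraries were highest with no overlap, and Pfkfb4 changed by -0.29 ± 0.07 in irradiated against control cells (adjusted p = 0.000549). Pfkfb3, the form with the strongest kinase activity, gave -0.12 with its irradiated libraries all below its control libraries and an adjusted p of 0.13. Pfkfb1 and Pfkfb2, the liver and heart forms, had 82 to 185 reads per library and log2 fold changes of -0.21 and -0.13 that did not pass (adjusted p = 0.188 and 0.467).

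Among the aldolases, which split the sugar, the brain form fell most of all 32 genes. Aldoc (chr11:78322968-78327781, + strand) had 102, 106 and 98 CPM in triol, 100.04, 106 and 111 in irradiated and 148, 151 and 148 in control libraries. Control libraries stood apart at about 150 CPM, and the log2 fold change was -0.50 ± 0.04 in irradiated against control cells, or 0.71-fold (adjusted p = 3.94e-13). Aldoa, the ubiquitous form and 93.2% of the family's reads per kb in irradiated cells, had 1338, 1312 and 1368 CPM in triol, 1263, 1338 and 1280.2 in irradiated and 1461, 1480.0 and 1381 in control libraries. It was lower in every irradiated than in every control library, by -0.16 ± 0.03 (adjusted p = 3.45e-05).

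Among the listed enzymes from triose phosphate to pyruvate, the sparsely expressed Bpgm gave 0.15 on the log2 scale in irradiated against control cells. The other listed ones differed by at most 0.14. Enolases outside the list rose more, Eno3 by 0.41 ± 0.05 (adjusted p = 2.86e-09) and Eno4 by 1.01 ± 0.27 (adjusted p = 0.00245). Gapdh, which oxidises the triose and is often used as a reference transcript, had 2487, 2378 and 2457 CPM in triol, 2369, 2469 and 2399.9 in irradiated and 2485, 2542 and 2379 in control libraries. These groups overlapped, and irradiated against control cells gave -0.03 ± 0.03 on the log2 scale, with an adjusted p of 0.362 and a 95% interval from -0.09 to 0.02. Eno1, the enolase that makes phosphoenolpyruvate, had 1889, 1746 and 1858 CPM in triol, 1784, 1894 and 1835 in irradiated and 1663, 1681 and 1653 in control libraries. Eno1 was the listed glycolytic enzyme that rose, by 0.14 ± 0.03, with every irradiated library above every control library (adjusted p = 0.000109). Pkm (chr9:59656368-59679375, + strand), the pyruvate kinase of most tissues, whose splice forms cannot be separated in counts per gene, had 2519.8, 2429 and 2489 CPM in triol, 2338, 2449 and 2425 in irradiated and 2355, 2377 and 2384 in control libraries. Irradiated and control libraries overlapped for Pkm, which gave 0.02 ± 0.03 on the log2 scale, with an adjusted p of 0.593 and a 95% interval from -0.04 to 0.07.

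Pgk1, the kinase of the first ATP-forming step, had 988, 953 and 925 CPM in triol, 880.02, 931 and 911 in irradiated and 950.1, 968 and 966 in control libraries. Its fall of -0.08 ± 0.03 in irradiated against control cells (adjusted p = 0.0187) was lost under other scalings and without control replicate 2 (adjusted p = 0.0599) or irradiated replicate 1 (adjusted p = 0.103). Tpi1, the triose isomerase, averaged 681 ± 4.82 CPM in irradiated and 713 ± 3.51 CPM in control cells, and its change of -0.07 missed the threshold (adjusted p = 0.0539), as did Pgam1, the phosphoglycerate mutase, at -0.04 (adjusted p = 0.288). Bpgm, the mutase of red-cell bisphosphoglycerate, had 43 to 95 reads per library and an interval of -0.21 to 0.51 that reaches both directions.

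For lactate, the carriers moved in opposite directions, while the enzyme Ldha did not pass the test. Ldha (chr7:46841475-46855627, + strand), the subunit that favours lactate formation, had 1508, 1370.5 and 1378 CPM in triol, 1367, 1420.1 and 1449 in irradiated and 1370.4, 1405 and 1395 in control libraries. All groups overlapped, and irradiated against control cells gave 0.02 ± 0.03 on the log2 scale, with an adjusted p of 0.582 and a 95% interval from -0.04 to 0.09. Slc16a1 (MCT1, chr3:104638668-104658462, + strand), whose window heads the sequences above, is a carrier of high affinity that works in uptake and export. It had 178, 168 and 167 CPM in triol, 174, 176 and 175 in irradiated and 113, 113 and 119 in control libraries. The irradiated and triol libraries all stood above the control libraries, and Slc16a1 rose 1.52-fold in irradiated against control cells, a log2 fold change of 0.61 ± 0.04 and the largest of the 32 (adjusted p = 6.6e-17). Slc16a3 (MCT4, chr11:120948480-120960868, + strand), the low-affinity exporter of strongly glycolytic cells, had 116, 117 and 122 CPM in triol, 116, 118 and 111 in irradiated and 140.2, 142 and 141 in control libraries. Its order was the reverse, with the control libraries highest, and it changed by -0.30 ± 0.04 in irradiated against control cells (adjusted p = 5.03e-08).

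Bsg and Emb, chaperones of carriers of this family, both rose with radiation. Bsg (basigin) had 176, 172 and 175 CPM in triol, 184, 179 and 170.04 in irradiated and 164, 157 and 148 in control libraries, a log2 fold change of 0.18 ± 0.04 for irradiated against control cells (adjusted p = 0.000136). Emb (embigin) had 318, 327 and 323 CPM in triol, 344, 328 and 331 in irradiated and 270.03, 277 and 279.95 in control libraries, a log2 fold change of 0.28 ± 0.03 (adjusted p = 1.44e-09). In both genes every irradiated library lay above every control library. Per kb of exon, Slc16a1 held 64.7, 63.3 and 62.1% of the summed Slc16a1 and Slc16a3 level in triol libraries, 64.4, 64.1 and 65.4% in irradiated libraries and 49.3, 49 and 50.3% in control libraries. The carriers were near equal in control cells, while Slc16a1 held the larger part in every irradiated and triol library. The difference in the Slc16a3 share, -15.2 percentage points for irradiated minus control, had an exact permutation p of 0.1, the smallest 3 libraries against 3 allow, and 0.197 after adjustment over 57 such tests. Summed, both carriers came to 60.8 ± 1.12 CPM per kb in triol, 61.2 ± 0.691 in irradiated and 52.6 ± 0.742 in control cells (SD, n = 3 each).

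**Figure D3:**
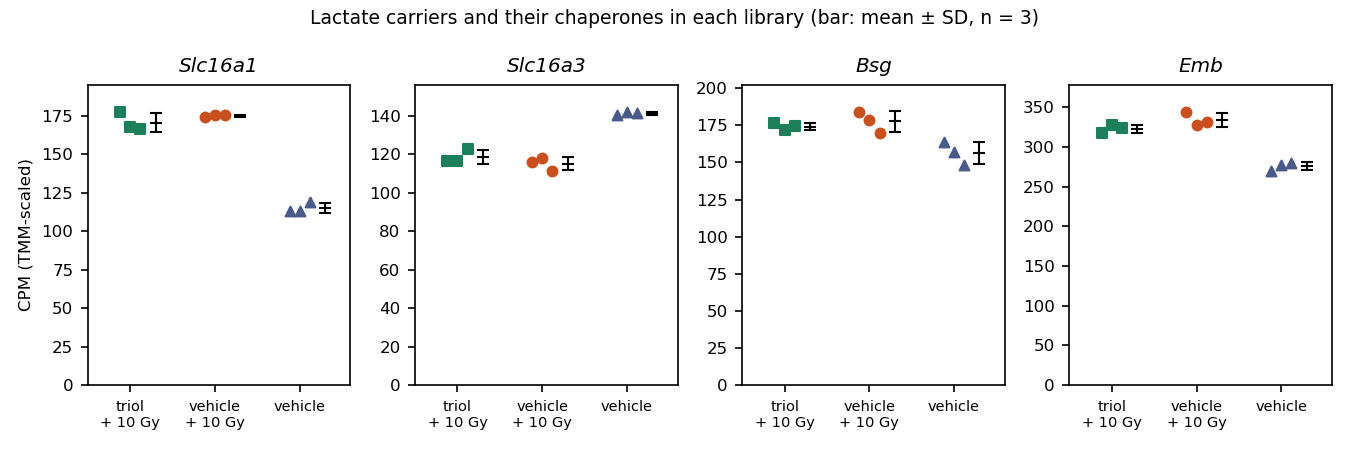
CPM of the lactate carriers Slc16a1 and Slc16a3 and of the carrier chaperones Bsg and Emb in each library. Triol, irradiated and control cells stand from left to right, with group mean and SD beside the points (n = 3). Slc16a1 lies at 167 to 178 CPM in both irradiated groups and at 113 to 119 CPM in control cells, and Slc16a3 runs the other way.

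At pyruvate entry, 1 kinase that switches pyruvate dehydrogenase off and 1 subunit of the mitochondrial carrier fell in irradiated against control cells, and the subunits of the E1 enzyme moved in opposite directions. Pdk1 (chr2:71873224-71903858, + strand), the main kinase here, had 146, 153 and 151 CPM in triol, 154, 155 and 157 in irradiated and 174, 183 and 178 in control libraries. Its control libraries were highest, with a log2 fold change of -0.20 ± 0.04 in irradiated against control cells (adjusted p = 1.64e-05). Pdk3 had 13.6, 15 and 13.1 CPM in triol, 13.3, 16 and 14.4 in irradiated and 12.6, 13.4 and 10.7 in control libraries. Those groups overlapped, and its change of 0.24 ± 0.10 stood just outside the threshold (adjusted p = 0.0508).

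Pdha1, the catalytic E1 alpha subunit, had 190.3, 183 and 176 CPM in triol, 175, 178 and 184 in irradiated and 193, 199 and 197 in control libraries, with a log2 fold change of -0.13 ± 0.04 for irradiated against control cells (adjusted p = 0.00308). Its partner Pdhb, the E1 beta subunit, had 153, 146 and 138 CPM in triol, 149, 141 and 141 in irradiated and 136, 131 and 134 in control libraries. Pdhb thus rose where Pdha1 fell, by 0.11 ± 0.04 (adjusted p = 0.0304), a call lost without control replicate 2 (adjusted p = 0.13), control replicate 3 (0.0565) or irradiated replicate 1 (0.177) and with DESeq2 (0.06). Mpc1, a subunit of the mitochondrial pyruvate carrier, had 24.5, 25.6 and 23.4 CPM in triol, 24.8, 24.1 and 26.3 in irradiated and 27, 28.8 and 33.2 in control libraries. Its highest control value came from replicate 3, and the change of -0.24 ± 0.08 (adjusted p = 0.00899) shrank to -0.16 without it (adjusted p = 0.105). Mpc2, the other subunit, gave 0.06 ± 0.08 with overlapping groups (adjusted p = 0.566).

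Within gene families, the proportions of isozymes differed by a few percentage points, apart from the lactate carriers. Hk2 held 15.1, 14.8 and 14.7% of hexokinase reads per kb in triol libraries, 16.1, 15.7 and 16.5% in irradiated libraries and 12.7, 12.6 and 13.1% in control libraries. Its share was higher in every irradiated than in every control library, while its own level did not pass the test. Slc2a6 held 27.6, 26 and 29.2% of the glucose carriers in triol, 29.3, 28 and 28.6% in irradiated and 33.5, 35.2 and 34.2% in control libraries. Pdk3 held 22.1, 22.9 and 20.8% of the kinases in triol, 20.7, 23.8 and 21.7% in irradiated and 17.9, 18.2 and 15.5% in control libraries. Groups did not overlap between irradiated and control cells for any of these shares, yet each exact permutation test stood at its floor of p = 0.1 (adjusted p = 0.197 over 57 tests), so none passed.

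**Figure D4:**
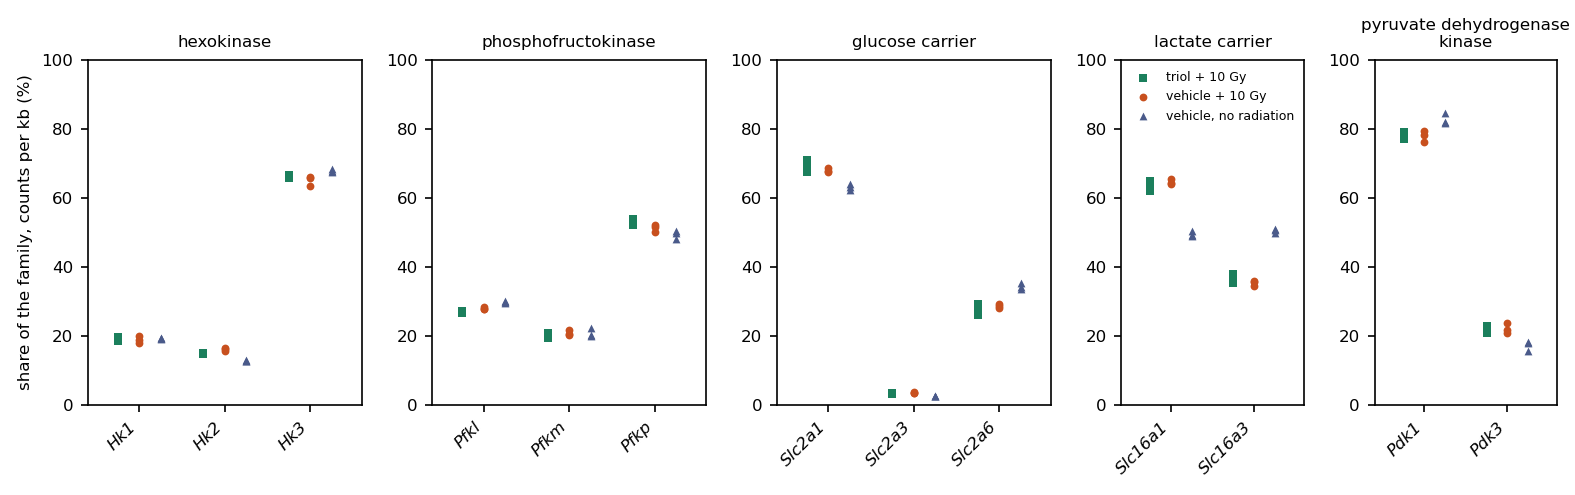
Share of each isozyme in its family, from counts per kb of exon, in percent, for every library of the triol, irradiated and control groups. The carriers Slc16a1 and Slc16a3 are near equal in control cells and separate in both irradiated groups, while the hexokinase and phosphofructokinase families keep their order of isozymes.

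Triol pretreatment changed none of these genes past the threshold. Triol against irradiated cells had 0 of 32 genes with an adjusted p under 0.05, while 0.106% of all tested genes, or 12 of 11295, passed. DESeq2 and limma-voom also called 0, although DESeq2 gave an adjusted p to only 21 of the 32. At an unadjusted p under 0.05 there were 5 genes (7.66% of all genes), all with higher values in triol cells. Hk3 had the smallest p, with 0.11 ± 0.03 on the log2 scale (unadjusted p = 0.00198, adjusted p = 0.277). The others were Hk1 at 0.11 ± 0.03 (adjusted p = 0.365), Pfkp at 0.08 ± 0.03 (adjusted p = 0.443), Slc2a1 at 0.11 ± 0.04 (adjusted p = 0.459) and Pgk1 at 0.07 ± 0.03 (adjusted p = 0.508). Hk1, Hk3, Pfkp and Slc2a1 separated with all triol libraries above all irradiated ones, and Hk2 and Pdk1 with all below, or 6 of 32 beside 13.2% of all genes.

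The intervals bound what could have been missed only as far as the spread among these libraries goes, part or all of which may be technical. The 95% interval of the log2 fold change for triol against irradiated cells ran over -0.11 to 0.04 for Slc16a1, -0.04 to 0.12 for Slc16a3, -0.14 to 0.04 for Aldoc, -0.08 to 0.14 for Slc2a6, -0.06 to 0.07 for Ldha and -0.04 to 0.07 for Gapdh. For these genes a change of more than 1.2-fold in either direction lies outside the interval. The interval reached 0.07 to either side of the estimate in the median gene and 0.35 in Bpgm, the widest. The median log2 fold change of the 32 genes was 0.02, beside 0.00 over all genes.

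Triol against control cells gave 16 called genes of 32 (50%, with 43.3% among all genes), 4 higher (21.5% of all genes) and 12 lower (21.7%). This comparison shares its triol libraries with the one above and its control libraries with irradiated against control cells, so the values are given side by side and not as independent support. Slc16a1 changed by 0.57 ± 0.04 in triol against control cells and by 0.61 ± 0.04 in irradiated against control cells, and Aldoc by -0.55 ± 0.04 and -0.50 ± 0.04. Hk3 changed by -0.25 ± 0.03 in triol against control cells (adjusted p = 4.06e-08) and by -0.36 ± 0.03 in irradiated against control cells, and Hk1 by -0.22 ± 0.03 (adjusted p = 8.4e-07) and -0.33 ± 0.03. Pgk1 was the gene called in irradiated but not in triol against control cells, with -0.01 ± 0.03 in the triol comparison (adjusted p = 0.823). Its triol and irradiated libraries overlapped, and the direct test between them did not pass.

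Genes of neighbouring pathways were tested in the same fit. Among all tested genes, 22.1% were higher and 22.2% lower in irradiated against control cells, for comparison with the counts of each list. The list of other isozymes and carriers had 6 of 14 tested genes higher and 2 lower in irradiated against control cells. The largest rise was in Slc16a8, another lactate carrier (log2 fold change 1.94 ± 0.37, adjusted p = 3.4e-05). It had 19, 22 and 32 reads in triol, 28, 27 and 22 in irradiated and 8, 5 and 8 in control libraries. Eno4, an enolase of sperm, rose by 1.01 ± 0.27 (adjusted p = 0.00245), with 43, 27 and 50 reads in irradiated and 16, 21 and 26 in control libraries, and Ldhd, the D-lactate dehydrogenase, by 0.57 ± 0.14 (adjusted p = 0.000858). Eno3, another enolase, rose by 0.41 ± 0.05 (adjusted p = 2.86e-09), more than Emb and Bsg. It had 106, 97.6 and 95.3 CPM in triol, 104, 113 and 108 in irradiated and 76.7, 86.9 and 80.4 in control libraries. The sugar carriers Slc2a9, which moves urate, and Slc2a8 fell, by -0.53 ± 0.11 and -0.52 ± 0.13 (adjusted p = 7.57e-05 and 0.00141).

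The citric acid cycle list had 0 of 20 tested genes higher and 9 lower in irradiated against control cells (22.1% and 22.2% of all tested genes). That list also holds the cytosolic Idh1, counted among those 9. Idh1, the cytosolic isocitrate dehydrogenase, had 145, 146 and 140.2 CPM in triol, 132, 139.7 and 144 in irradiated and 177, 177 and 182 in control libraries (log2 fold change -0.37 ± 0.04, adjusted p = 1.1e-10). Sdhc and Sdhb, subunits of succinate dehydrogenase, changed by -0.30 ± 0.04 and -0.26 ± 0.05 (adjusted p = 1.71e-07 and 1.35e-05). In the pentose phosphate pathway, which branches off after hexokinase and makes NADPH, 0 of 8 genes were higher and 4 lower. The lactonase Pgls had 45.5, 43.1 and 48.8 CPM in triol, 44.1, 49.97 and 50.6 in irradiated and 63.2, 62.6 and 66.5 in control libraries (-0.41 ± 0.06, adjusted p = 2.05e-07). H6pd, an enzyme of the same steps in the endoplasmic reticulum, changed by -0.30 ± 0.06 (adjusted p = 8.66e-05), and the transaldolase Taldo1 by -0.13 ± 0.04 (adjusted p = 0.00394). Of the rest of the pyruvate dehydrogenase complex, 1 of 6 genes passed, the binding protein Pdhx, at 0.30 ± 0.05 (adjusted p = 9.19e-06).

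Serine synthesis, which draws on phosphoglycerate, had 2 of 5 genes higher and 2 lower (22.1% and 22.2% of all tested genes). Phgdh, its entry enzyme, rose by 0.18 ± 0.03 and the cytosolic Shmt1 by 0.40 ± 0.05, while the transaminase Psat1 changed by -0.18 ± 0.03 and the mitochondrial Shmt2 by -0.16 ± 0.03 (adjusted p of at most 0.000152 each). Among 9 tested glycogen genes 2 were higher and 4 lower. They included the phosphorylase Pygb at -0.25 ± 0.04 (adjusted p = 7.43e-07) and the branching enzyme Gbe1 at 0.23 ± 0.05 (adjusted p = 0.000517). The muscle phosphorylase Pygm, also on the muscle marker list, had 11 to 15 reads in triol and irradiated libraries and 2 to 6 in control libraries. In gluconeogenesis, Pcx, the pyruvate carboxylase that feeds pyruvate to oxaloacetate, rose by 0.38 ± 0.07 (adjusted p = 5.21e-06) and the mitochondrial Pck2 changed by -0.31 ± 0.05 (adjusted p = 5.62e-06), of 3 tested.

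Genes of the hypoxia-inducible factor pathway outside glycolysis gave 3 of 22 higher and 4 lower (22.1% and 22.2% of all tested genes). Hif1a itself had a log2 fold change of -0.02 ± 0.03 (adjusted p = 0.559). Vegfa, a secreted target, rose by 0.18 ± 0.07 (adjusted p = 0.0461), while Bnip3, a mitophagy receptor, and Egln1, the oxygen-sensing hydroxylase, changed by -0.29 ± 0.07 and -0.30 ± 0.05 (adjusted p = 0.000647 and 8.92e-06). Of 12 tested regulators of glycolysis 3 were higher and 3 lower. Myc, a transcription factor that activates many of the 36 genes, had 6.18, 5.01 and 6.62 CPM in triol, 4.99, 5 and 3.72 in irradiated and 6.5, 9.16 and 6.52 in control libraries. Every irradiated library was below every control library for Myc (-0.71 ± 0.16, adjusted p = 0.000406), while its partner Max, at 223 ± 6.54 CPM in irradiated and 189 ± 2.98 CPM in control cells, rose by 0.24 ± 0.03 (adjusted p = 2.01e-07). Txnip, which slows glucose uptake, rose by 0.18 ± 0.03 (adjusted p = 1.42e-05), and Trp53, the tumour suppressor p53, by 0.18 ± 0.03 (adjusted p = 1.51e-05). In triol against irradiated cells, 0 genes of any of these lists passed, with 9 of 99 tested genes at an unadjusted p under 0.05 beside 7.66% of all genes, and Myc gave 0.38 ± 0.17 (adjusted p = 0.582).

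**Figure D5:**
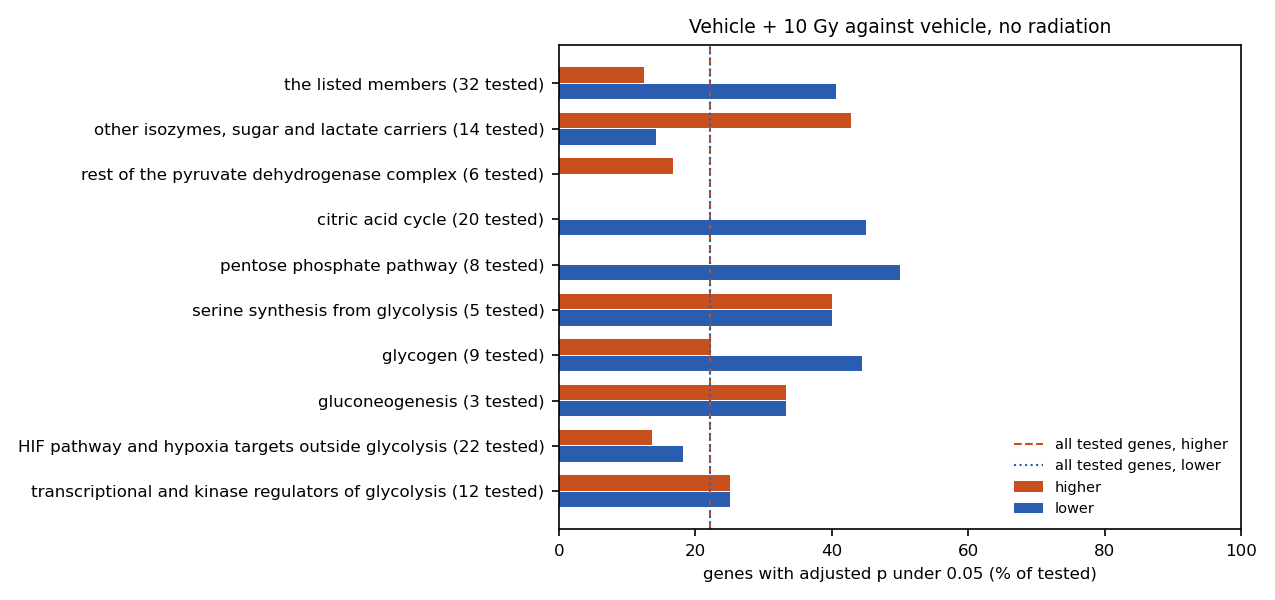
Percent of tested genes that were higher (orange) or lower (blue) at an adjusted p under 0.05 in irradiated against control cells, for the 36 listed genes and for lists of neighbouring pathways, with dashed and dotted lines at the share among all tested genes (22.1% higher and 22.2% lower). The citric acid cycle and the pentose phosphate pathway show lower genes only, and the other isozymes and carriers show mostly higher ones.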

How the data were processed

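Total RNA of 9 BV2 libraries was extracted with Trizol and made into libraries with the NEBNext Ultra RNA kit, per the labels' protocols. The authors deposited 1 table of raw counts of reads per gene, as whole numbers without normalisation. The submitters' processing notes name STAR 2.7.1a, fastp 0.18.0, FastQC, Subread 1.6.3 and featureCounts, and the build GRCm38. Neither the annotation used for counting nor its handling of strand and of reads with several matches was stated in the sources used here. Reads without molecular identifiers are not independent molecules.

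From the counts, edgeR 4.0.16 in R 4.3.3 was run with TMM scaling, filterByExpr (11295 genes kept) and the robust quasi-likelihood F test, in 1 fit over 9 libraries that leaves 6 residual degrees of freedom. Each test is two-sided, its p adjusted by Benjamini-Hochberg over all tested genes and read at a threshold of 0.05. An adjusted p beside a gene is edgeR's where no tool is given. Values in CPM use TMM-scaled totals, reads per 1000000 the plain totals. Length is the exon union of GENCODE M21, whose identifiers matched all 21951 of the table. Isozyme shares were compared by exact permutation of libraries.

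Groups and replicate numbers come from the sample titles. No 2 libraries were identical. The 36 genes and the other lists were chosen with earlier results of these data known. All listed genes may be named, with every library's value for those called with the 20 largest changes of a comparison and for Gapdh, Ldha, Ldhb and Pkm. From other lists, up to 3 rises and 3 falls per comparison were eligible. Full values of Slc2a1, Hk2 and Pdk3 and genes named outside that rule (Hif1a, Bsg, Emb, Eno3, Pck1, Alb and the near copy Eno1b) were chosen after their values were seen. Alternatives were DESeq2 1.42.0, limma-voom (limma 3.58.1), other scalings and filters, fits on 2 groups, a replicate block, a test against a fold of 1.2 and leaving out each library. The scripts were tested on simulated data.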

Additional observations from a re-analysis of the deposited data

How the results depend on the processing

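The counts of listed genes called in irradiated against control cells (17) and in triol against control cells (16) stayed within 1.5 times under every alternative except the test against a fold of 1.2. That test left 4 (1 higher, 3 lower) and 3 (1 higher, 2 lower), and of all genes 1098 and 1040. In triol against irradiated cells no alternative called a listed gene, while the count over all genes (12) was 19 with DESeq2, 36 with no filter on low counts, 22 in the 2 groups alone, 3 against a fold of 1.2 and 6 to 9 when each library was left out. It was 7 without irradiated replicate 1, 2 or 3 or triol replicate 1, and 6 without triol replicate 2. The median of the listed genes in irradiated against control cells was -0.0537 with upper quartile scaling and -0.0475 with plain library totals, which move the median of all genes to 0.0357 and 0.0418. In triol against control cells it was -0.00883 with library totals. In triol against irradiated cells it ran from -0.000687 to 0.0230 over the libraries left out, and was lowest without triol replicate 1. No listed gene that was called reversed. In irradiated against control cells, 13 of 17 called genes stayed called in every alternative other than the fold test, Slc2a3, Pgk1, Pdhb and Mpc1 being the others, and in triol against control cells 14 of 16, with Pdha1 and Pdhb the others. Pgk1 was lost with upper quartile scaling (adjusted p = 0.134) and with library totals (0.179). Tpi1 passed with DESeq2, limma-voom, no filter and without control replicate 3 (adjusted p = 0.0382 to 0.0474), Pdk3 under 6 alternatives (adjusted p = 0.0249 to 0.0465), and in triol against control cells Pfkp under both other scalings (0.00997 and 0.0208) and Pkm under those, DESeq2, limma-voom and the CPM filter (0.00395 to 0.0473). Reasons for these changes were not tested.

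Same-numbered libraries did not deviate together (r = -0.0506 to 0.0380 over genes), and the main fit did not pair them. Whether they shared a culture or day was not stated, and these correlations cannot decide it. With a replicate block, 22 genes passed in triol against irradiated cells, none of them listed here, and Pdk3 passed in irradiated against control cells (adjusted p = 0.0355). Depth limits Bpgm, Pfkfb1 and Pfkfb2 most, and Pdk2, Pdk4, Eno2 and Ldhb could not be tested.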

Other observations

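Pck1, the cytosolic enzyme of liver glucose synthesis, had 8, 4 and 12 reads in triol, 2, 0 and 5 in irradiated and 0, 2 and 0 in control libraries. It was too low to be tested. Alb, the hepatocyte albumin gene, had 61, 65 and 82 reads in triol, 24, 11 and 2 in irradiated and 4, 11 and 6 in control libraries and passed the test in triol against irradiated cells (log2 fold change 2.18 ± 0.33, adjusted p = 0.000577). The relation of these reads to the treatment was not tested.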
